A study of Mus musculus with 6 samples.

Results

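The extracellular matrix glycoproteins that mark a wound or a thickening vessel wall were measured by 20 probe sets of 10 genes in injured mouse carotid arteries. The genes were tenascin C (Tnc), thrombospondins 1 and 2 (Thbs1 and Thbs2), periostin (Postn), osteonectin (Sparc), fibronectin (Fn1), the CCN proteins Ccn1 and Ccn2, Cthrc1 and Comp. They were chosen by name, as the probe sets whose annotation gives exactly 1 of these genes, out of 45037 probe sets and 18193 named genes. The names were chosen with earlier results of these data known, so counts set beside the whole array only describe these genes. SMC-IRF9-TG mice express a complete, HA-tagged mouse IRF9 cDNA from the minimal SM22α promoter, which is active in smooth muscle, and their arteries were compared with those of NTG mice, which lack the transgene. Both groups were C57BL/6 mice by the labels (C57BL/6J in the methods), which the study's methods give as males aged 10 to 12 weeks, and the carotid arteries of both had been injured with a wire 14 days before collection. There were 3 pools in each group, and every pool combined the RNA of 3 to 5 vessels, of which 400 ng went onto its own Affymetrix array. The study made several transgenic lines, and the labels do not say which of them gave these pools. By the study, the line with the most IRF9 was used for its later phenotype work. Other lines also had more neointima, the new inner layer of an injured wall, than NTG controls. In these arrays an effect of the transgene's place in the genome and an effect of IRF9 cannot be told apart. The labels call the pools biological replicates without naming the animals, and p-values cover only how far these pools spread.

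Matricellular proteins are secreted into the matrix but are not mainly structural. They bind integrins, syndecans, growth factors and collagens, and change how cells adhere, migrate and proliferate. Most are scarce in a resting artery wall and are produced again after injury, largely by smooth muscle cells and fibroblasts and in part by platelets and macrophages. Fibronectin and Comp also have structural roles in the matrix.

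The promoters of 5 of the 10 genes were in the RefSeq table used (assembly GRCm38.p6), as 7 windows of the 250 bases before a start site. They are Tnc and Postn with a pair of windows each, and Thbs2, Sparc and Ccn1. Promoters of the genes that rose are shown with promoters of genes that did not pass the test, so that the letters can be read beside the values. The windows shown are Tnc at chr4:64046937-64047186 on the minus strand, Thbs2 at chr17:14694263-14694512 on the minus strand, Sparc at chr11:55420081-55420330 on the minus strand, Ccn1 at chr3:145649986-145650235 on the minus strand and the second Postn window at chr3:54360857-54361106 on the plus strand. Each is written 5′ to 3′ and ends at the base before the start site, and capitals mark the motif matches named after them.
Tnc: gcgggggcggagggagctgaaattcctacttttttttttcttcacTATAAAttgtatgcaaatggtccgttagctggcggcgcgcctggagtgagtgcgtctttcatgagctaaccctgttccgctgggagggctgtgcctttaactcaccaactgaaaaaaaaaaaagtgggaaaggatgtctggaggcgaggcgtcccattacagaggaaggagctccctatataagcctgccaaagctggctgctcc
Thbs2: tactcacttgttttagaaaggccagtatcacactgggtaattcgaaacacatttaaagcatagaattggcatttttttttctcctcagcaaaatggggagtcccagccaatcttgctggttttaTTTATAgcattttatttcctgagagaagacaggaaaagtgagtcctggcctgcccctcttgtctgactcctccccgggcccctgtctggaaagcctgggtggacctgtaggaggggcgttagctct
Sparc: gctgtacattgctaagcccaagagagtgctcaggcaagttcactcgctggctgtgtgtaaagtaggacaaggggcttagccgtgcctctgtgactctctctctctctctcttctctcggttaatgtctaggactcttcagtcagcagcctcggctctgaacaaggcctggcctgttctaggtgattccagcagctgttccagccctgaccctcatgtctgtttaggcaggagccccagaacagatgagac
Ccn1: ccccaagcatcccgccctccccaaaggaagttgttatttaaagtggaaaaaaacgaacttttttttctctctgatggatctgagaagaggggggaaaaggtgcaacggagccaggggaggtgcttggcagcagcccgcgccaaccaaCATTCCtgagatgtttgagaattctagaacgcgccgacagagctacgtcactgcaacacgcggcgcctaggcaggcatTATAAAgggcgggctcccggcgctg
Postn: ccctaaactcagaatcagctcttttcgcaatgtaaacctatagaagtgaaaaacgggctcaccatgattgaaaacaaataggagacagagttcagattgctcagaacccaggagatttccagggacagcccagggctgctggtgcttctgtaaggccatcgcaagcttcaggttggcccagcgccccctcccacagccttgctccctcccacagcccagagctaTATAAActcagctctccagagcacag

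The 5 motifs were searched on both strands. TATAAA, a core promoter element added to the search after the windows had been read, was in 5 of the 7 windows and in 12.4% of 32851 promoter windows of the same length. The pair of Tnc windows overlap and hold the same TATAAA. It stood at bases −205 to −200 in the Tnc window, −26 to −21 in the Postn window and −25 to −20 in the Ccn1 window, and as its reverse complement at −126 to −121 in the Thbs2 window. The search took the exact letters at any place in a window, so the count does not tell core elements from other matches. The Tnc window also holds tatataag nearer its start site, which the exact search left unmarked. The TEAD core GGAATG, the target of the Hippo pathway's transcription factors, had 1 match, as its reverse complement at −103 to −98 of the Ccn1 promoter, against 12.6% of all windows. Matches to the repeat GAAANNGAAA, which resembles the element that IRF9 complexes bind, were in 0 of the 7 windows and 2.98% of all windows. The AP-1 motif TGANTCA was in 0 of 7 and 6.75%, and the CArG box, bound by serum response factor, in 0 of 7 and 1.47%. A match or its lack describes the letters of these windows only.

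The values are log2 probe-set levels as deposited, so that 1 unit is a doubling, and a level is compared only within its probe set. Arrays correlated at r = 0.980 to 0.985 among the SMC-IRF9-TG pools and at 0.927 to 0.955 among the NTG pools (Pearson, across probe sets, which are not independent). Between the groups r was 0.916 to 0.956, a range that spans the NTG pairs, so the NTG pools did not form a group as close as the SMC-IRF9-TG pools. The Irf9 probe set read 5.46, 5.41 and 5.58 in SMC-IRF9-TG pools 1, 2 and 3, against 4.75, 5.43 and 5.36 in the NTG pools, and since its place in the transcript is not known here it does not check the labels. Sirt1, the gene that the study places under IRF9, was lower in SMC-IRF9-TG arteries by a log2 difference of -2.29 (adjusted p = 0.00482). Its probe set is in the study's own gene list from these same samples, so its direction is not independent evidence. Xist, an RNA of female cells, read 2.94 to 3.72 in the SMC-IRF9-TG pools and 9.94, 9.50 and 4.08 in NTG pools 1, 2 and 3, and the methods give male mice. Signal at the 3′ end of Actb exceeded that at its 5′ end, by the array's control probe sets, by 1.56 to 2.50 log2 units in the SMC-IRF9-TG pools, against 7.09 in NTG pool 2 and 2.21 and 3.04 in the other NTG pools. Acta2, the actin that marks smooth muscle, read 13.48 to 13.63 in the SMC-IRF9-TG pools and 13.28 to 13.60 in the NTG pools.

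Of the 10 matricellular genes, represented by the brightest probe set of each, 6 were higher in SMC-IRF9-TG arteries and 0 were lower, while 4 did not pass the test. Tnc, Thbs1, Thbs2, Sparc, Fn1 and Cthrc1 rose, by 4.17-fold to 20.4-fold, and Postn, Ccn1, Ccn2 and Comp did not pass. Over all named genes, 3.11% were called higher and 0.511% lower. Of the 20 probe sets, 10 were called higher and 0 lower, against 2.37% called higher and 0.373% called lower over the whole array (limma, Benjamini-Hochberg adjusted p under 0.05 over 45037 probe sets). At an unadjusted p under 0.05, 15 probe sets were higher and 1 was lower, against 11.2% and 11.1% over the whole array. By the methods' t-test, also unadjusted, 12 were higher and 1 was lower, against 7.9% and 10.7% over the whole array. The median log2 difference was 2.16 over the 10 genes, against -0.05 over all genes. Averaged over the 10 genes, the level was 9.38, 9.33 and 9.37 in SMC-IRF9-TG pools 1, 2 and 3, against 7.43, 6.93 and 7.16 in the NTG pools. All SMC-IRF9-TG pools read above all NTG pools for 8 of the 10 genes, against 16.1% of all genes, and below them for 0, also against 16.1%. With 3 pools against 3 an exact permutation test cannot go below a 2-sided p of 0.1, which these 8 genes reached. Markers of macrophages (10 of 10) and fibroblasts (6 of 8) were higher in the same arteries, and their values are given after those of the matricellular genes. In whole arteries, fewer cells of a type and less RNA per cell cannot be told apart.

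**Figure D1:**
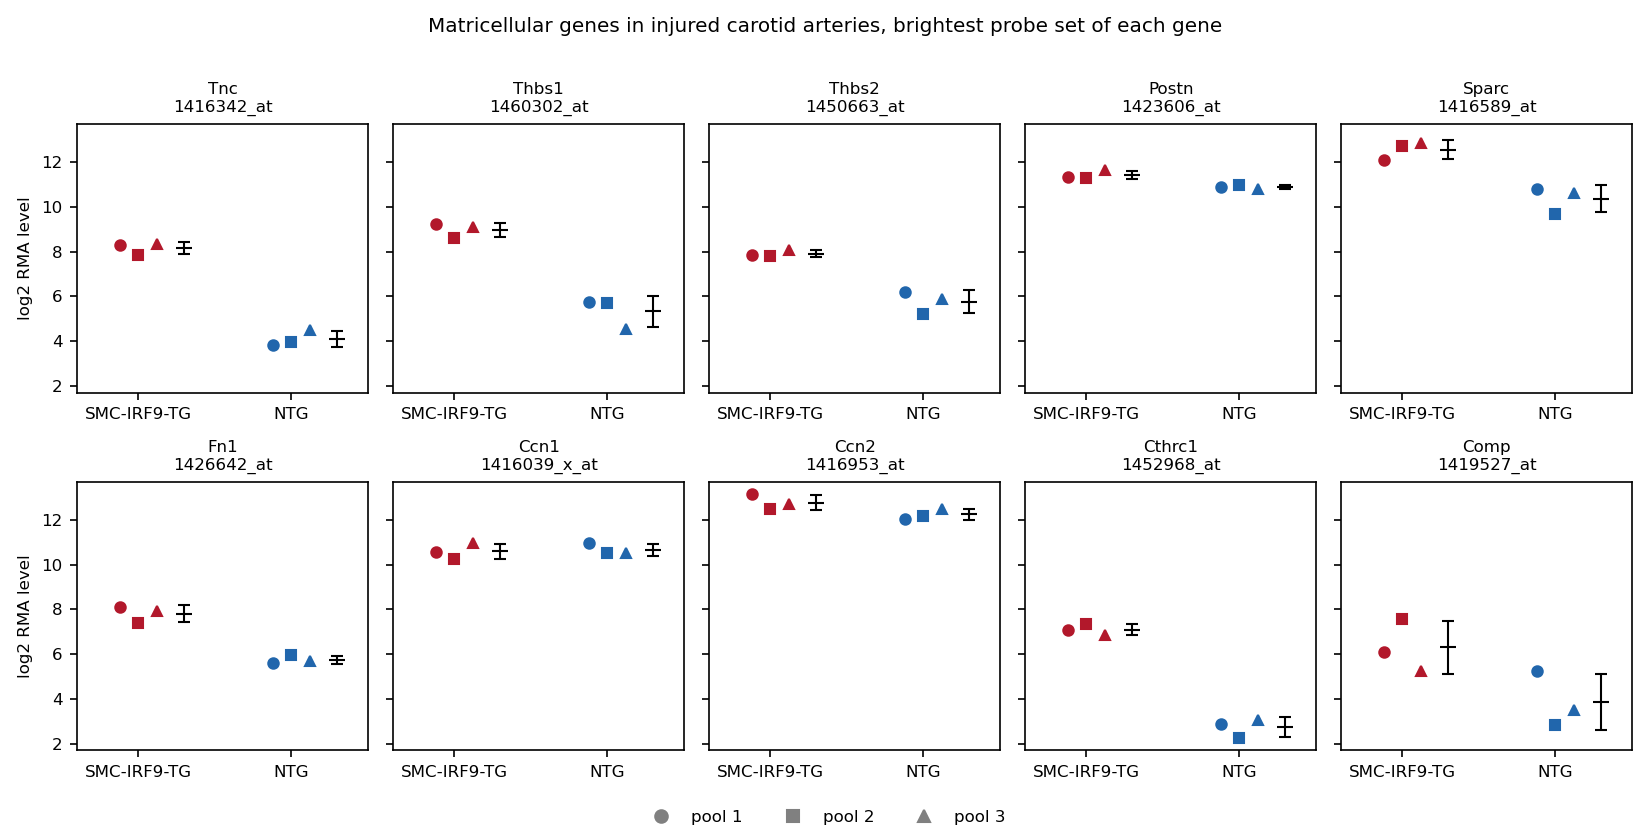
Levels of the 10 matricellular genes in each pool (log2, brightest probe set, points for pools, black bars for the mean and SD, SMC-IRF9-TG left of NTG for each gene). Tnc stands at 7.86 to 8.35 in SMC-IRF9-TG pools, against 3.83 to 4.49 in NTG pools, while the Ccn1 and Ccn2 points of both groups overlap.

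Tnc and Cthrc1 had the widest differences. Tenascin C, a hexameric glycoprotein that loosens cell adhesion and is abundant in healing wounds, read 8.29, 7.86 and 8.35 in SMC-IRF9-TG pools 1, 2 and 3, against 3.83, 3.95 and 4.49 in the NTG pools (probe set 1416342_at). The lowest SMC-IRF9-TG pool was 3.37 log2 units above the highest NTG pool. The means were 8.16 ± 0.27 in SMC-IRF9-TG and 4.09 ± 0.35 in NTG arteries (SD, n = 3 each), a log2 difference of 4.08 (95% interval 3.52 to 4.64, adjusted p = 0.000317) or 16.9-fold. A second Tnc probe set, 1456344_at, read 4.04, 3.72 and 4.12 in SMC-IRF9-TG pools, against 3.72, 2.62 and 2.22 in NTG pools. There the groups met at 3.72, 2 NTG pools lay under the lower quartile of their arrays, and the difference of 1.11 did not pass (adjusted p = 0.141), though without NTG pool 1 it was 1.54 (adjusted p = 0.0401).

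Cthrc1, a secreted protein with a collagen triple helix that was first found in injured rat arteries and acts on cell migration, was measured by 1 probe set. It read 7.10, 7.34 and 6.88 in SMC-IRF9-TG pools 1, 2 and 3, against 2.91, 2.26 and 3.09 in NTG pools. All NTG pools read under the median of their arrays, and NTG pool 2 lay under its array's lower quartile. The log2 difference was 4.35 (95% interval 3.76 to 4.95, adjusted p = 0.000317), or 20.4-fold, between means of 7.11 ± 0.23 in SMC-IRF9-TG and 2.75 ± 0.44 in NTG arteries (SD, n = 3 each).

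Both thrombospondins rose. Thrombospondin 1 activates latent TGF-β, binds CD36 and CD47 and is released by platelets as well as made by vessel wall cells. Its level was 9.21, 8.60 and 9.10 in SMC-IRF9-TG pools 1, 2 and 3, against 5.75, 5.72 and 4.54 in NTG pools (1460302_at). No SMC-IRF9-TG pool came within 2.85 log2 units of an NTG pool. The difference was 3.63 (95% interval 2.84 to 4.43, adjusted p = 0.00214), or 12.4-fold. The other Thbs1 probe set, 1450377_at, was also higher, by 2.42 (adjusted p = 0.00476), with 6.45, 6.22 and 6.58 in SMC-IRF9-TG pools against 4.55, 3.52 and 3.90 in NTG pools.

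Thrombospondin 2, which limits angiogenesis and binds metalloproteinases, has 3 probe sets. The brightest, 1450663_at, read 7.84, 7.80 and 8.08 in SMC-IRF9-TG pools, against 6.19, 5.23 and 5.90 in NTG pools, a difference of 2.13 (95% interval 1.52 to 2.74, adjusted p = 0.00711) or 4.39-fold. With 1422571_at the pools of each group lay closer together, at 7.83, 7.64 and 8.15 in SMC-IRF9-TG and 5.09, 5.02 and 5.19 in NTG arteries. That difference was 2.78 (adjusted p = 0.000671). The third, 1447862_x_at, read 7.47, 7.17 and 7.61 in SMC-IRF9-TG pools, against 5.65, 6.85 and 6.15 in NTG pools. Its groups were apart by 0.32 log2 units and the difference of 1.20 missed the threshold (adjusted p = 0.0827), while it passed without NTG pool 2 (1.52, adjusted p = 0.0245).

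Fibronectin, the glycoprotein of the provisional matrix on which smooth muscle cells migrate, was higher by both of its probe sets. The levels were 8.13, 7.41 and 7.92 in SMC-IRF9-TG pools 1, 2 and 3, against 5.62, 5.95 and 5.70 in NTG pools (1426642_at). All SMC-IRF9-TG pools were at least 1.46 log2 units above the NTG pools, and the difference was 2.06 (95% interval 1.52 to 2.60, adjusted p = 0.00482), or 4.17-fold. Probe set 1437218_at read 7.49, 7.79 and 8.13 in SMC-IRF9-TG pools, against 5.11, 4.61 and 5.16 in NTG pools, a difference of 2.84 (adjusted p = 0.00148). Both Fn1 probe sets are in a gene list that the study drew from these same samples, so their direction is not independent evidence. The study also ran real-time PCR for genes of that list in injured arteries of both groups. Its primers include Fn1, and the PCR values were not read here.

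Sparc, a collagen-binding calcium protein that acts on matrix assembly and cell rounding, rose by both of its brighter probe sets. The levels were 12.09, 12.72 and 12.84 in SMC-IRF9-TG pools 1, 2 and 3, against 10.79, 9.68 and 10.63 in NTG pools (1416589_at), and the groups lay 1.30 log2 units apart. The difference was 2.19 (95% interval 1.42 to 2.95, adjusted p = 0.0148), or 4.55-fold. This call was lost without SMC-IRF9-TG pool 2 (2.10, adjusted p = 0.0805) and without SMC-IRF9-TG pool 3 (2.04, adjusted p = 0.0654). The second, 1448392_at, read 11.68, 11.62 and 11.98 in SMC-IRF9-TG pools, against 10.11, 10.45 and 9.73 in NTG pools. Its difference of 1.66 passed (adjusted p = 0.0113) and was also lost without SMC-IRF9-TG pool 2 (adjusted p = 0.0546) or pool 3 (adjusted p = 0.0577). The third, 1458204_at, went the other way at a low level, with 3.21, 2.87 and 3.11 in SMC-IRF9-TG pools, against 3.97, 3.35 and 3.63 in NTG pools. All its SMC-IRF9-TG pools were below the NTG pools, and the difference of -0.59 did not pass (95% interval -1.09 to -0.08, adjusted p = 0.18). Which part of the transcript it covers is not known here.

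**Figure D2:**
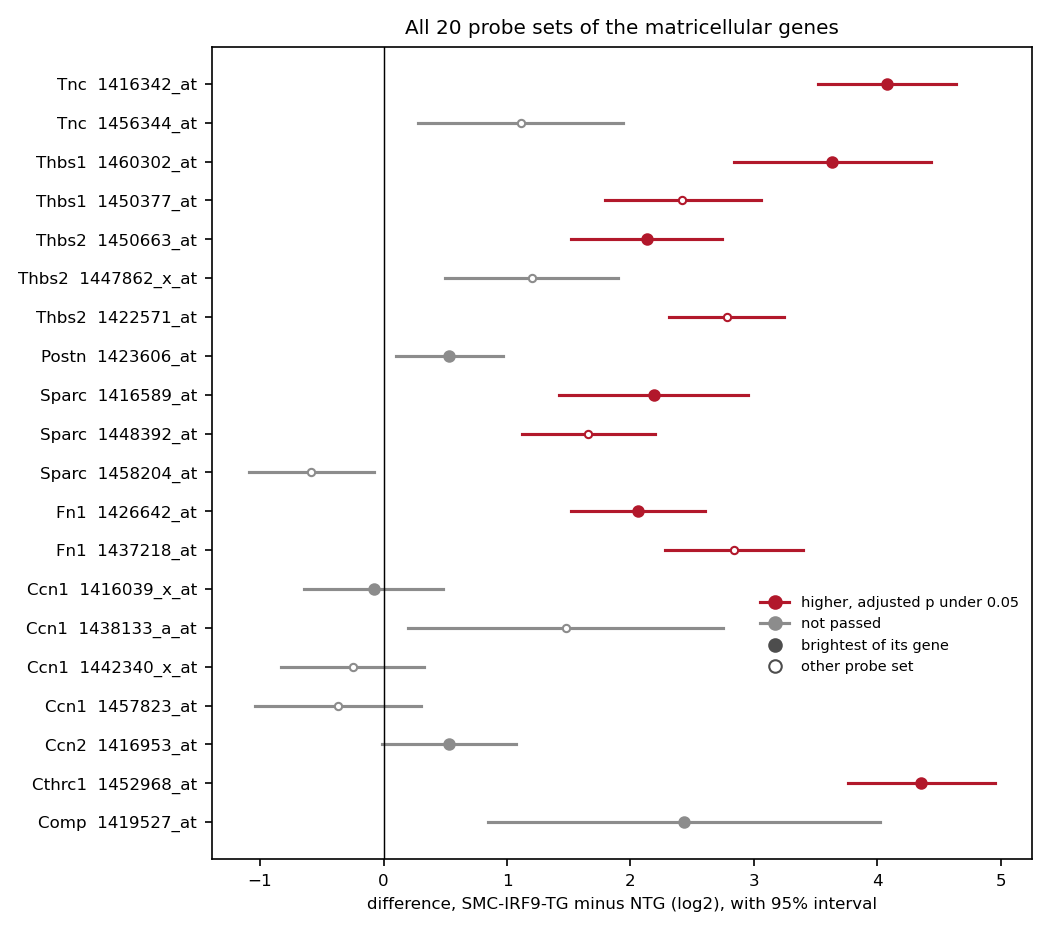
Log2 difference, SMC-IRF9-TG minus NTG, of all 20 matricellular probe sets with 95% intervals (filled points for the brightest probe set of a gene, open points for others, colour for the test). The intervals of Tnc 1416342_at (3.52 to 4.64) and Cthrc1 (3.76 to 4.95) lie farthest right, and those of 3 of the 4 Ccn1 probe sets cross 0.

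Probe sets of 1 gene gave the same call for Thbs1 and Fn1, while Tnc, Thbs2 and Sparc each had 1 probe set that did not pass. When a gene's probe sets were averaged instead, the number of genes called higher was again 6. Those means differed by 2.59 for Tnc, 3.03 for Thbs1, 2.04 for Thbs2, 2.45 for Fn1, 1.09 for Sparc and 4.35 for Cthrc1, on the log2 scale.

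Periostin, an integrin ligand of the fasciclin family that is made by activated smooth muscle cells and fibroblasts, did not pass the test. It read 11.33, 11.29 and 11.62 in SMC-IRF9-TG pools 1, 2 and 3, against 10.89, 10.98 and 10.77 in NTG pools. The groups did not overlap and lay 0.31 log2 units apart. The difference was 0.53, or 1.45-fold, with a 95% interval of 0.10 to 0.97, at an adjusted p of 0.164. With quantile normalization it was 0.27 (adjusted p = 0.553).

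The CCN proteins Ccn1 and Ccn2 are immediate targets of the Hippo effectors and of TGF-β, and bind integrins and heparan sulphate. Neither passed the test. Ccn2, the connective tissue growth factor, read 13.14, 12.46 and 12.70 in SMC-IRF9-TG pools, against 12.05, 12.17 and 12.49 in NTG pools. The groups overlapped narrowly, between 12.46 and 12.49, and the difference was 0.53 (95% interval -0.01 to 1.07, adjusted p = 0.232).

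Ccn1 was measured by 4 probe sets. The brightest, 1416039_x_at, read 10.56, 10.26 and 10.95 in SMC-IRF9-TG pools 1, 2 and 3, against 10.97, 10.52 and 10.51 in NTG pools. The groups overlapped, and the interval of the difference, -0.64 to 0.48 around -0.08 (adjusted p = 0.863), lay within 1 log2 unit of 0 on both sides. The sign of that difference changed under several alternative settings. Probe set 1438133_a_at gave 9.00, 9.22 and 9.63 in SMC-IRF9-TG pools, against 9.00, 6.41 and 8.01 in NTG pools, a difference of 1.48 (95% interval 0.20 to 2.75, adjusted p = 0.179). NTG pool 2 was the low one, and without it the difference was 0.78 (adjusted p = 0.194). The other pair of probe sets differed by -0.25 (1442340_x_at, adjusted p = 0.56) and -0.37 (1457823_at, adjusted p = 0.456).

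Comp, the cartilage oligomeric matrix protein, is a pentameric member of the thrombospondin family that is found in cartilage, tendon and also vascular smooth muscle. Among the brightest probe sets of the 10 genes, that of Comp had the largest SD in both groups. The levels were 6.09, 7.59 and 5.26 in SMC-IRF9-TG pools 1, 2 and 3, against 5.25, 2.86 and 3.53 in NTG pools. SMC-IRF9-TG pool 3 and NTG pool 1 were 0.01 log2 units apart, so the groups touched without overlapping. The difference of 2.43, between means of 6.31 ± 1.18 in SMC-IRF9-TG and 3.88 ± 1.23 in NTG arteries (SD, n = 3 each), had an interval of 0.85 to 4.02 and did not pass (adjusted p = 0.106). It lay between 1.80 and 3.12 when each pool was left out in turn.

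Genes of cartilage were read beside Comp. Of 8 cartilage and tendon genes, 1 was higher, Acan, the aggrecan core protein, at 8.49, 9.31 and 8.61 in SMC-IRF9-TG pools, against 4.82, 3.98 and 5.76 in NTG pools (difference 3.95, adjusted p = 0.00381). Col2a1, the main cartilage collagen, did not pass (adjusted p = 0.0749), with 9.04, 11.71 and 5.35 in SMC-IRF9-TG pools, against 3.94, 3.35 and 3.13 in NTG pools. Col9a1 read 8.32, 9.86 and 4.51 in SMC-IRF9-TG pools, against 3.59, 3.28 and 4.74 in NTG pools by its brighter probe set, 1428571_at, and the other, 1421381_a_at, differed by -0.04 (adjusted p = 0.962). Like Comp, Col2a1 and Col9a1 were highest in SMC-IRF9-TG pool 2 and lowest in pool 3 of that group. Without pool 3 of the SMC-IRF9-TG group, Col2a1 differed by 6.90 (adjusted p = 0.00704) and Col9a1 by 5.22 by the brighter probe set (adjusted p = 0.00798). The whole list averaged 5.32, 6.34 and 4.17 in SMC-IRF9-TG pools 1, 2 and 3, against 3.44, 2.97 and 3.52 in NTG pools, while Matn1, a defining cartilage gene, read 1.96 to 2.27 in SMC-IRF9-TG pools, against 2.26 to 3.44 in NTG pools. Whether cartilage-like cells had a part in the Comp values was not tested.

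**Figure D3:**
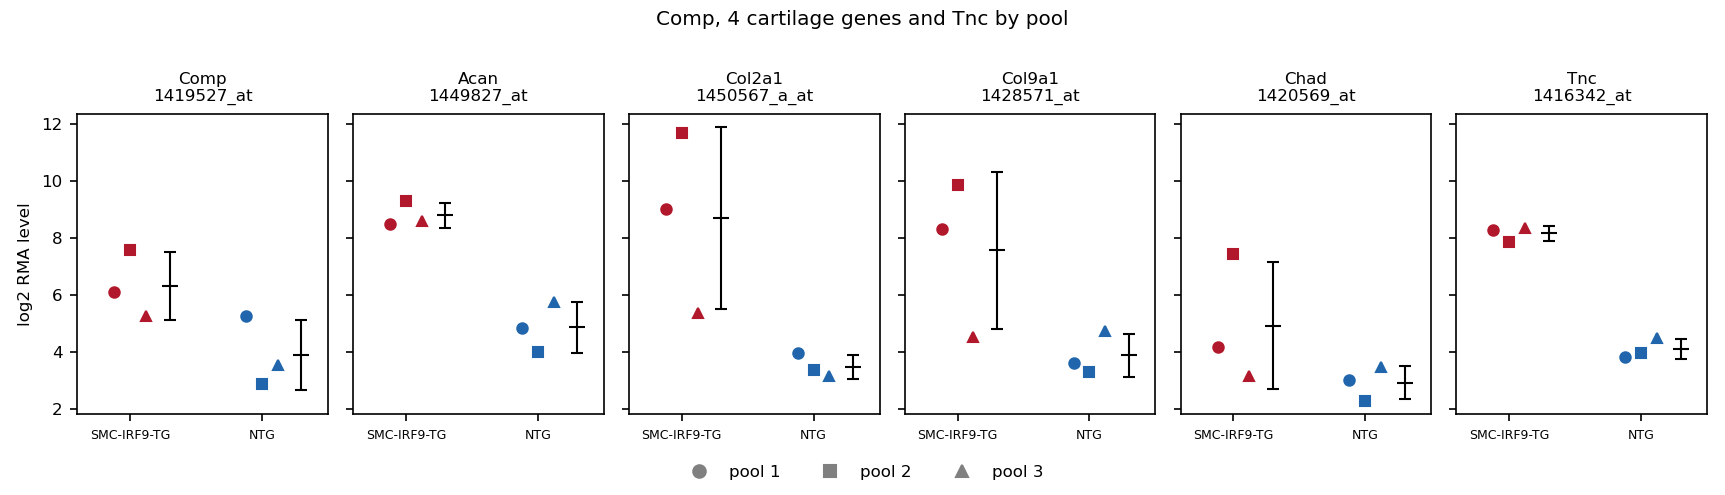
Levels of Comp, of the cartilage genes Acan, Col2a1, Col9a1 and Chad, and of Tnc in each pool (log2, points for pools, black bars for the mean and SD, SMC-IRF9-TG left of NTG). Comp, Col2a1, Col9a1 and Chad are highest in SMC-IRF9-TG pool 2, where Col2a1 reaches 11.71, and lowest among the SMC-IRF9-TG pools in pool 3.

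Outside the 10 genes, 22 further matricellular genes were listed and 21 were measured by a probe set of 1 gene. Of these, 5 were higher in SMC-IRF9-TG arteries, or 23.8% against 3.11% of all genes, and 0 were lower, with a median difference of 0.11. All SMC-IRF9-TG pools read above all NTG pools for 5 of the 21 and below them for 5, each against 16.1% of all genes. At an unadjusted p under 0.05 by limma, 5 genes were lower, against 11.1% of all probe sets. Tgfbi, a fasciclin-family relative of periostin, read 9.73, 9.39 and 8.29 in SMC-IRF9-TG pools, against 5.20, 6.06 and 5.53 in NTG pools (difference 3.54, adjusted p = 0.00379). Its other 3 probe sets differed by 3.41 to 3.91 and passed too. With the term for arrays with high Xist, none of the Tgfbi probe sets passed, and the brightest differed by 3.61. Tgfbi is induced by TGF-β and is also expressed by macrophages.

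Ccn4 and Ccn5, Wnt-linked members of the CCN family, were higher while Ccn1 and Ccn2 did not pass. Ccn4 read 5.80, 6.02 and 6.86 in SMC-IRF9-TG pools, against 4.55, 3.61 and 3.64 in NTG pools (difference 2.29, adjusted p = 0.015, or 0.0652 without SMC-IRF9-TG pool 2), and its second probe set, 1448594_at, differed by 3.31 (adjusted p = 0.0101). Ccn5 read 7.65, 8.35 and 8.57 in SMC-IRF9-TG pools, against 6.76, 5.73 and 6.12 in NTG pools (difference 1.98, adjusted p = 0.0198), and its call was lost without SMC-IRF9-TG pool 2 (adjusted p = 0.102) or pool 3 (adjusted p = 0.0825). Ccn3, which vascular smooth muscle is known to express, read below all NTG pools in every SMC-IRF9-TG pool, at 10.70, 10.58 and 10.79 against 11.21, 11.47 and 10.93 in NTG pools, and did not pass (difference -0.52, adjusted p = 0.197). Its second probe set, 1426851_a_at, also read below all NTG pools in every SMC-IRF9-TG pool and did not pass (difference -0.66, adjusted p = 0.121). Whether one CCN gene differed from another in its response was not tested.

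Lgals3, galectin-3, which macrophages make in quantity, read 9.98, 9.87 and 9.19 in SMC-IRF9-TG pools, against 7.04, 6.82 and 8.61 in NTG pools (difference 2.19, adjusted p = 0.0447). That call held in 1 of the 6 fits that left out a pool, the one without NTG pool 3 (adjusted p = 0.00902), and the other 5 gave adjusted p of 0.073 to 0.182. The fifth gene called higher was Smoc2, a Sparc relative, named here after its values were seen. It differed by 1.60 (adjusted p = 0.0131), with 5.50, 6.02 and 6.12 in SMC-IRF9-TG pools against 4.47, 4.01 and 4.36 in NTG pools, and did not pass without SMC-IRF9-TG pool 2 (adjusted p = 0.0776) or pool 3 (adjusted p = 0.0668). Its second probe set, 1431362_a_at, differed by -0.01 (adjusted p = 0.981).

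Of 16 cell surface receptors of these proteins, 1 was higher and 0 lower. This was Sdc1, the heparan sulphate proteoglycan syndecan 1, at 7.62, 7.38 and 7.61 in SMC-IRF9-TG pools, against 6.58, 5.95 and 5.27 in NTG pools (1437279_x_at, difference 1.60, adjusted p = 0.0377). The call was lost in 4 of the 6 fits that left out a pool (those without SMC-IRF9-TG pool 1, 2 or 3 or NTG pool 2, adjusted p 0.0596 to 0.14), while the next one in level, 1415943_at, gave 2.14 (adjusted p = 0.0012). The remaining Sdc1 probe sets did not pass, with differences of 0.79 (1415944_at, adjusted p = 0.0825) and -0.40 (1448158_at, adjusted p = 0.393). The median over the receptors was 0.46. Of 19 genes of the TGF-β and Hippo pathways and of the serum response factor module, inputs to the transcription of many matricellular genes, 1 was higher and 0 lower. It was Smad2, a receptor-activated mediator of TGF-β, at 6.22, 6.09 and 5.81 in SMC-IRF9-TG pools, against 4.50, 5.00 and 5.09 in NTG pools (difference 1.18, adjusted p = 0.0358). Without SMC-IRF9-TG pool 1, 2 or 3 or NTG pool 1 it did not pass (adjusted p 0.0836 to 0.161), nor did its second probe set (1442062_at, 0.62, adjusted p = 0.116). The median over these inputs was 0.50.

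**Figure D4:**
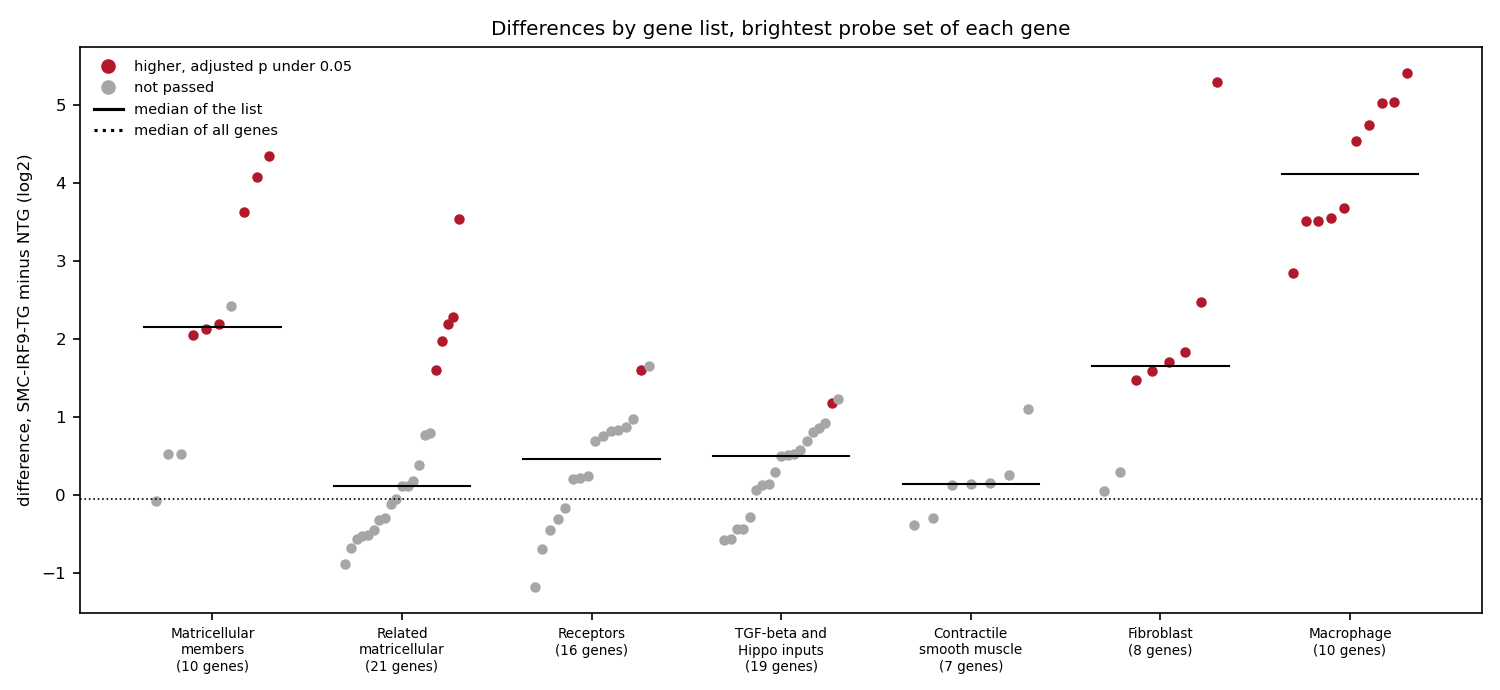
Log2 difference, SMC-IRF9-TG minus NTG, of each gene in 7 lists (points, brightest probe set, coloured by the test) with the median of each list (bar) and of all genes (dotted line, -0.05). The matricellular median is 2.16, those of receptors and TGF-β and Hippo inputs 0.46 and 0.50, and that of the macrophage markers 4.11.

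Markers of macrophages and fibroblasts moved with the group. All 10 macrophage markers were higher in SMC-IRF9-TG arteries, by 2.85 to 5.42 log2 units, with list means of 8.17 to 8.39 in SMC-IRF9-TG pools, against 3.75 to 4.58 in NTG pools. Tyrobp, an adaptor of myeloid receptors, differed by 5.42 (adjusted p = 0.00053). Of 8 fibroblast markers 6 were higher, and the list means were 9.69 to 10.05 in SMC-IRF9-TG pools, against 7.86 to 8.14 in NTG pools. That count was 4 to 5 without each pool and 4 with quantile normalization. Dcn, the proteoglycan decorin, was 1 of the 6 (difference 1.84, adjusted p = 0.044), and its call held without SMC-IRF9-TG pool 3 but was lost without any of the other 5 pools (adjusted p 0.0737 to 0.175). Lum, a small proteoglycan, differed by 5.30 (adjusted p = 0.000112) and Col1a1 by 2.48 (adjusted p = 0.00582), while the adventitial markers Dpt and Pi16 differed by 0.05 (adjusted p = 0.922) and 0.30 (adjusted p = 0.496). Smooth muscle cells make several genes of that list as well, among them Col1a1, Col1a2, Col3a1 and Lum. The part of either cell type in the matricellular differences was not tested.

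Of the 7 contractile smooth muscle markers, 0 were higher and 0 lower by limma, with the same counts at an unadjusted p under 0.05, each by its brightest probe set. For Myh11 that probe set differed by 0.15 (adjusted p = 0.669). Its other one, 1418122_at, read 5.44, 6.40 and 5.97 in SMC-IRF9-TG pools, against 6.44, 7.22 and 6.98 in NTG pools. That difference was -0.94 (limma, unadjusted p = 0.0132, adjusted p = 0.135). The list means were 9.51 to 9.91 in SMC-IRF9-TG pools, against 8.80 to 10.07 in NTG pools. Among them Acta2 differed by 0.14 (adjusted p = 0.66), with the sign turned after quantile normalization (-0.41, adjusted p = 0.269). Tagln differed by 1.11 (adjusted p = 0.238), with NTG pool 2 the low one for Tagln at 10.05. Of 7 endothelial markers 1 was higher, Tie1 (difference 1.75, adjusted p = 0.0349), and list means were 6.55 to 6.63 in SMC-IRF9-TG pools, against 5.43 to 6.71 in NTG pools. Without SMC-IRF9-TG pool 1, 2 or 3 or NTG pool 3, Tie1 did not pass (adjusted p 0.0665 to 0.153). Of 6 platelet markers measured 1 was higher, the chemokine Pf4 (difference 1.43, adjusted p = 0.0177), which did not pass without SMC-IRF9-TG pool 1, 2 or 3 or NTG pool 1 (adjusted p 0.0607 to 0.0962). The platelet list means were 4.46 to 5.05 in SMC-IRF9-TG pools, against 4.56 to 4.68 in NTG pools. The other 5 platelet markers did not pass, among them Itga2b (0.05, adjusted p = 0.908) and Gp9 (-0.29, adjusted p = 0.538). The part of platelets, which store thrombospondin 1, in the Thbs1 difference was not tested. None of 5 skeletal muscle markers and 3 adipocyte markers passed in either direction by limma. At an unadjusted p under 0.05, 2 skeletal muscle genes were lower and 0 adipocyte genes were lower. Their list means were 3.05 to 3.26 and 1.94 to 2.16 in SMC-IRF9-TG pools, against 3.29 to 3.73 and 2.19 to 2.40 in NTG pools.

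The calls of the matricellular genes were recomputed without each pool. Of the 10 called probe sets, 8 kept their call in all 6 fits, and the others were both of Sparc. With a term for the arrays with high Xist, which leaves NTG pool 3 alone to be set against the SMC-IRF9-TG pools, 3 of the 10 genes were called higher, Tnc, Thbs1 and Cthrc1. Under that term Thbs2 differed by 2.01 (adjusted p = 0.0989), Sparc by 1.92 (adjusted p = 0.146) and Fn1 by 2.12 (adjusted p = 0.0667), each by its brightest probe set. Another probe set of each of these genes kept its call under the term, Thbs2 1422571_at (2.69), Sparc 1448392_at (2.03) and Fn1 1437218_at (2.65). In contrast, the other called probe set of Thbs1, 1450377_at, lost its call under the term (2.51). Under the same term 0 of the 21 further matricellular genes, 2 of the 8 fibroblast markers and 9 of the 10 macrophage markers were called higher, by limma and the brightest probe set, against 0.386% of all probe sets.

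**Figure D5:**
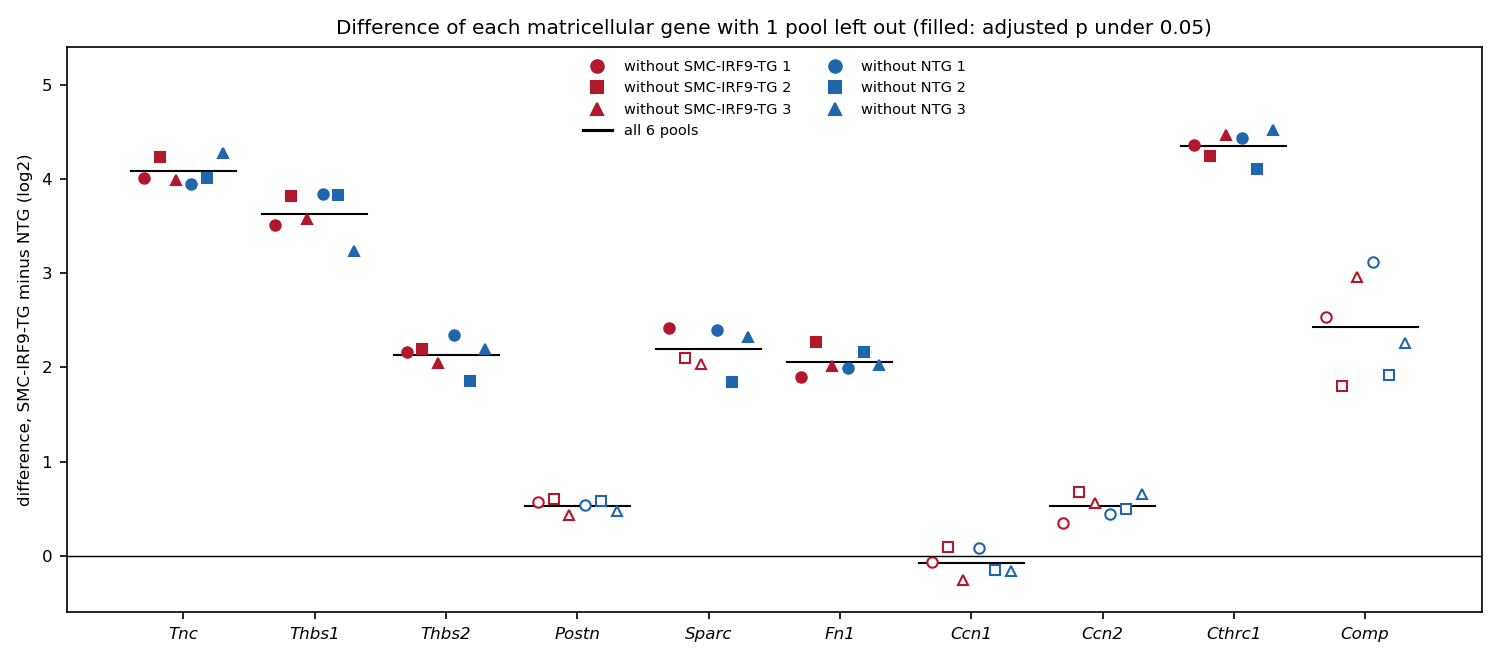
Log2 difference, SMC-IRF9-TG minus NTG, of the 10 matricellular genes with each pool left out in turn (symbols, filled where the adjusted p is under 0.05) and with all 6 pools (bar). Tnc ranges from 3.95 to 4.28 and Cthrc1 from 4.11 to 4.52, and Comp has the widest range, 1.80 to 3.12.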

How the data were processed

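RNA of 6 pooled samples, 3 of SMC-IRF9-TG and 3 of NTG carotid arteries, was measured on Affymetrix arrays. The authors made the deposited log2 values with RMA, which corrects the background, normalizes by quantiles and summarizes probes, in Affymetrix Expression Console (versions not given in the sources used here). The columns still differed in distribution, with medians of 3.42 to 3.66. The difference followed the groups. Upper quartiles were 5.25 to 5.33 in SMC-IRF9-TG arrays and 4.97 to 5.08 in NTG arrays, and minima were 1.07 to 1.16 and 0.43 to 0.47. Scanner files were not used here, so detection was not checked per probe set, the number of arrays limits the precision, and values under an array's lower quartile (2.33 to 2.41 in SMC-IRF9-TG arrays and 2.57 to 2.66 in NTG arrays) are described as such.

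After 64 control probe sets were left out of 45101, 45037 were tested without a filter. In the platform annotation, 34945 probe sets have 1 gene, 932 have several and 9160 are unnamed here. Differences, SMC-IRF9-TG minus NTG, were fitted by limma 3.58.1 (lmFit, then eBayes) in R 4.3.3, and 2-sided p-values were adjusted over all 45037 by the Benjamini-Hochberg method, with a threshold of 0.05. The methods name a t-test, which was run as an alternative; limma shares the spread over probe sets. Intervals are 95% intervals of the fit. A gene is taken by its probe set of highest mean, and all probe sets of the 10 genes are given; 1 further probe set that lists Thbs1 with another gene was not used. The other lists hold 11 sets of genes, of which up to 4 called genes with the largest change, or the 2 of highest level where none passed, were to be named, and not each is printed. Names outside this rule are few (Ccn3, Col2a1, Col9a1, Matn1, Chad, Itga2b, Gp9, Xist, Dpt, Pi16, Smoc2 and Myh11) and were chosen after their values were seen. The 10 genes and the lists were chosen with earlier results of these data known. The fits were tested on simulated data first. Tables and permutations were made in Python 3.11.15 with scipy 1.17.1, pandas 2.3.3 and numpy 2.4.6, and figures with matplotlib 3.10.9.

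Each pool was left out in turn. Further alternatives were array weights, a variance prior that was trended and robust, quantile normalization, median centring of the arrays, a filter on dim probe sets, the methods' t-test, a replicate block, averaging over a gene's probe sets, and terms for arrays with high Xist or with low poly-A controls.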

Additional observations from a re-analysis of the deposited data

How the results depend on the processing

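Over 318 comparisons of a matricellular probe set with an alternative, 288 kept direction and side of the threshold, 18 lost a call, 6 gained one and 6 changed sign, of which 0 were of a called probe set. The alternatives included the methods' t-test without adjustment, by which Postn, Sparc 1458204_at and Thbs2 1447862_x_at gained calls at an unadjusted p. The count of probe sets higher was 10, and it was 8 to 11 without each pool, 6 with the Xist term and 0 with the methods' t-test after adjustment, where 0 probe sets were higher and 1 lower on the whole array (12 matricellular probe sets were higher by that test unadjusted, against 7.9% of the whole array). The count of genes higher was 6, and it was 5 to 6 without each pool, 3 with the Xist term and 0 with the adjusted t-test. The count of probe sets lower was 0, and 1 with the unadjusted t-test, Sparc 1458204_at, against 10.7% of the whole array. The Ccn1 difference of -0.08 (1416039_x_at) was 0.02 after centring on the median, 0.08 with the Xist term, 0.05 with the poly-A term and -0.26 to 0.09 without each pool, and that of Ccn1 1457823_at was 0.05 with the Xist term. Among the other lists, the calls of Ccn5, Lgals3, Sdc1, Smad2, Dcn, Tie1 and Pf4 were lost with quantile normalization (adjusted p 0.0553 to 0.104), and those of Tgfbi, Ccn4 (adjusted p = 0.102), Ccn5 (0.135), Lgals3 (0.205), Smoc2 (0.125), Smad2 (0.193), Col1a1 (0.0511), Col3a1 (0.0597), Dcn (0.19), Tie1 (0.161), Pf4 (0.0512) and Acan (0.053) with the Xist term. The count of the 21 further matricellular genes called higher was 5, and 1 to 5 without each pool, 3 with quantile normalization and 0 with the Xist term. Dcn was also lost with array weights (adjusted p = 0.123). Among marker genes that did not pass, Acta2 (0.14) was -0.41 with quantile normalization and -0.05 with the Xist term, Dpt (0.05) was -0.22 with quantile normalization, -0.13 with the poly-A term and -0.23 to 0.26 without each pool, and Itga2b (0.05) was -0.11 with quantile normalization or the Xist term and -0.17 to 0.20 without each pool. With dim probe sets left out, Col2a1 passed (adjusted p = 0.041). The cause of these changes was not tested. Over the whole array the counts of probe sets higher and lower were 1069 and 168, and were 1497 and 111 after centring, 547 and 153 with quantile normalization, 174 and 18 with the Xist term, and 297 to 1268 and 23 to 583 without each pool. With the replicate number as a block, 10 matricellular probe sets and 6 genes were called higher, and 659 and 71 probe sets over the whole array. The numbers are not shown to pair the pools, since deviations of same-numbered pools correlated at -0.15, -0.0006035 and 0.02696. The small number of arrays limits what can be told of the 10 probe sets that did not pass.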
